A study of Mus musculus with 12 samples.

Results

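The genes described here break heme down or move and store its iron: Hmox1, Hmox2, Blvra, Blvrb, Fth1, Ftl1, Slc40a1, Tfrc, Slc11a2 and Fech. They were chosen by name, for what their products do, with earlier results of these data known. They are 10 of the 23478 rows of a gene count table. All 10 had enough counts to be tested. RNA was taken from lungs of newborn C57/Bl6 mice after the lavage fluid had been removed. On day 0 the pups received saline (SAL) or 25 mg/kg aurothioglucose (ATG) into the peritoneum. ATG is a gold compound known as an inhibitor of thioredoxin reductase. Pups then stayed in room air (RA) or in more than 95% oxygen for 72 h (hyperoxia, HYP). The 12 samples form 4 groups of 3: SAL/RA, ATG/RA, SAL/HYP and ATG/HYP. The labels name no sex, litter, pooling or age beyond this, and they do not say which samples are separate animals, so p-values measure only the spread between these samples, which may be technical.

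Heme oxygenase opens the heme ring and releases biliverdin, carbon monoxide and ferrous iron. Biliverdin reductase then makes bilirubin, and the iron is kept inside ferritin shells or leaves the cell through ferroportin. Cells take up iron bound to transferrin through the transferrin receptor, and ferrochelatase puts iron back into a porphyrin ring in the last step of heme synthesis. When iron is low, the iron regulatory proteins bind hairpins in the untranslated ends of several of these messenger RNAs. Such a hairpin in a 5′ UTR holds back translation, and those in the 3′ UTR of the transferrin receptor message protect it from decay.

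Such hairpins were found in 4 of the 10 genes by the search described below, and their loop is set in capitals in the following 7 sequences. They come from the GENCODE M21 transcripts and are written 5′ to 3′ along the transcript.
Fth1: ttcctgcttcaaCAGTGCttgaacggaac
Ftl1: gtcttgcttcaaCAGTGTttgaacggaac
Slc40a1: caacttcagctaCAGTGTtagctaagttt
Tfrc, the first: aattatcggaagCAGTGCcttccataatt
Tfrc, the second: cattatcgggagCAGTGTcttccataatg
Tfrc, the third: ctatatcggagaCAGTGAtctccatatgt
Tfrc, the fourth: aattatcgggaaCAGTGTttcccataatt
In mm10 the Fth1 hairpin lies in the 5′ UTR at chr19:9982732-9982760 on the plus strand. The Ftl1 hairpin lies in the 5′ UTR at chr7:45459779-45459807 on the minus strand, and that of Slc40a1 in the 5′ UTR at chr1:45925465-45925493 on the minus strand. The 4 hairpins that the search matched in Tfrc lie in its 3′ UTR on the plus strand, at chr16:32631219-32631247, chr16:32631598-32631626, chr16:32631663-32631691 and chr16:32631710-32631738. The search asked for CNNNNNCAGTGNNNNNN on the sense strand of coding transcripts, with 5 paired bases (G with T allowed) on either side of the loop. It matched a UTR in 4 of the 10 genes and in 133 of the 14178 tested genes with a coding transcript (0.938%). A match is a description and does not show that a protein binds there, and no match says only that this arrangement of letters is not in the transcript.

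Total counts per library ran from 14331749 to 20486735, and 15761 genes passed the filter on low counts. Levels are given as CPM (counts scaled to a common library total) with TMM factors, and differences as log2 fold changes from edgeR's quasi-likelihood test with p-values adjusted over all tested genes (threshold 0.05). SAL/HYP 2 and ATG/HYP 2 stood apart by heart genes: Nppa, an atrial peptide gene, stood at 269.8 and 1108 CPM there and at 1.85 to 3.55 CPM in the other 10 libraries. SAL/HYP 1 stood apart by the skeletal muscle gene Myh8 (175 CPM, against 0.788 to 15.3 elsewhere), and SAL/HYP 2 and SAL/HYP 3 by the thymocyte gene Rag1 (39.2 and 15.0 CPM, against 0.449 to 6.35), so each SAL/HYP library stood apart in at least 1 of these genes. Xist exceeded the Y-linked genes in 0 of 3 SAL/RA, 2 of 3 ATG/RA, 2 of 3 SAL/HYP and 1 of 3 ATG/HYP libraries, and the alternative with sex as a covariate rests on this assignment. The summed level of 12 lung markers, such as the surfactant gene Sftpc and the endothelial gene Pecam1, ran from 20380 to 30710 CPM. Of the 12, 5 were called in hyperoxia after saline (4 higher, 1 lower) and 2 after ATG (1 higher, 1 lower). Over all tested genes 9.19% and 11.7% were called in these contrasts. All 10 cell cycle genes fell in hyperoxia after each injection (medians -1.45 and -1.81). The part of these differences in the results that follow was not tested beyond a few other fits. These left out both Nppa-rich libraries or each library, or took sex, cardiomyocyte markers or erythroid markers as a covariate. In these bulk samples fewer cells of a type and less RNA per cell cannot be told apart.

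In hyperoxia the ferritin chains, the transferrin receptor and the inducible heme oxygenase were higher than in room air, and no gene of the 10 was called lower. After saline, 4 of the 10 genes rose in hyperoxia (Ftl1, Fth1, Tfrc and Hmox1) and none fell, against 9.19% of all tested genes called in either direction. After ATG, the same 4 and Slc40a1 rose and none fell, against 11.7% of tested genes. In the contrast averaged over both injections, those 5 rose and none fell, against 22.4% of tested genes. The median log2 fold change of the 10 genes was 0.391 after saline and 0.356 after ATG, beside -0.00181 and 0.000788 over all tested genes. The groups compared did not overlap, in either direction, for 7 of the 10 genes after saline and for 6 after ATG, against 29.5% and 27.6% of all tested genes. Among these, Hmox2 (-0.19) and Fech (-0.30) after saline and Blvra (-0.48) after ATG were lower in hyperoxia, and none of them was called.

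**Figure D1:**
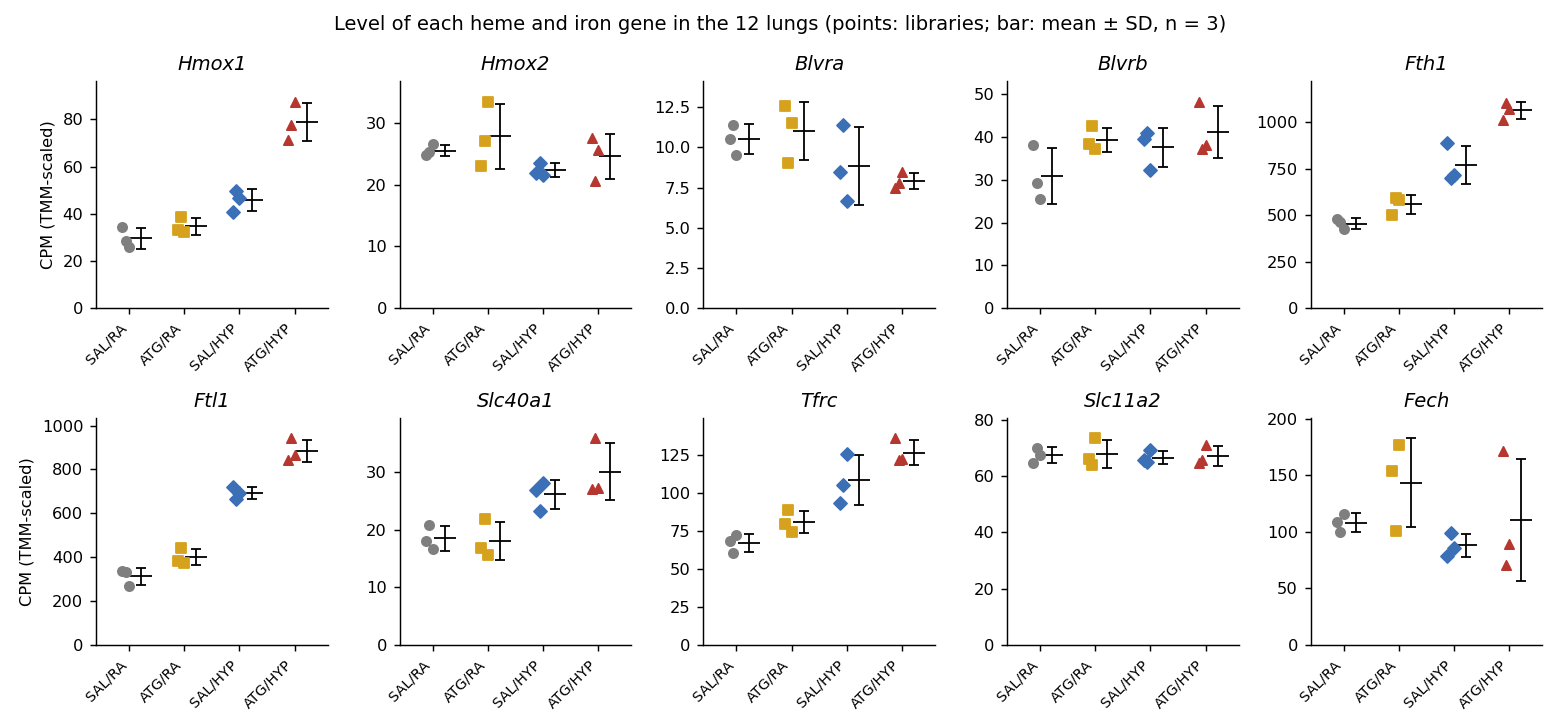
Level of each of the 10 genes (CPM, TMM-scaled, linear axes from 0) in each library of SAL/RA, ATG/RA, SAL/HYP and ATG/HYP. Points are libraries and bars show the mean ± SD of 3. The 4 groups are fully separate for Fth1 and Ftl1, ATG/HYP lies above the other groups for Hmox1, and the Slc11a2 points stay between 64.1 and 73.4 CPM.

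Hmox1, the inducible heme oxygenase (chr8:75093618-75100593, GRCm38.p6, protein-coding), was measured at 34.3, 28.4 and 25.8 CPM in SAL/RA 1 to 3 and at 33.1, 38.7 and 32.1 CPM in ATG/RA. It stood at 40.9, 49.8 and 46.8 CPM in SAL/HYP and at 71.4, 77.7 and 87.5 CPM in ATG/HYP. Every hyperoxia library lay above every room air library, and the 3 ATG/HYP libraries lay above all others, while the room air groups overlapped. Hmox1 rose in hyperoxia by 0.64 after saline (SE 0.127, adjusted p = 0.00648, 3 against 3 samples) and by 1.19 after ATG (SE 0.126, adjusted p = 6.31e-05). As linear folds these were 1.55 and 2.28.

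Hmox2, the constitutive heme oxygenase (chr16:4726361-4766742), averaged 25.5 ± 0.918, 27.8 ± 5.25, 22.3 ± 1.09 and 24.5 ± 3.63 CPM (SD, n = 3) in SAL/RA, ATG/RA, SAL/HYP and ATG/HYP. It did not pass in any contrast. Its difference in hyperoxia was -0.19 after saline (95% interval -0.501 to 0.119) and -0.18 after ATG (-0.489 to 0.127). The Hmox1 count divided by the Hmox2 count of the same library, which needs no scaling between libraries, ran from 0.974 to 1.39 in SAL/RA, 0.961 to 1.44 in ATG/RA, 1.87 to 2.18 in SAL/HYP and 2.59 to 3.79 in ATG/HYP. The hyperoxia groups overlapped neither with room air nor with each other in this ratio. Exons of Hmox2 overlap those of Cdip1 on the opposite strand over 892 bases, and whether the counting used strand is not given in the sources used here, so the Hmox2 level is uncertain.

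The biliverdin reductases, which turn biliverdin into bilirubin, passed in none of the 7 contrasts. Blvra (chr2:127070629-127097084) averaged 10.5 ± 0.936 CPM in SAL/RA, 11.03 ± 1.82 in ATG/RA, 8.84 ± 2.40 in SAL/HYP and 7.91 ± 0.522 in ATG/HYP (SD, n = 3). Its libraries did not overlap between ATG/RA (9.02 to 12.6 CPM) and ATG/HYP (7.45 to 8.47 CPM), with a difference of -0.48 (SE 0.204, adjusted p = 0.154). Averaged over the injections the Blvra difference was -0.36 (SE 0.144, adjusted p = 0.0869). That p ran from 0.0259 to 0.199 over 21 other settings and was under 0.05 in 4 of them: without SAL/HYP 2 (0.0271), without ATG/RA 2 (0.0495), without both Nppa-rich libraries (0.0409) and with sex as a covariate (0.0259). Blvrb (chr7:27447978-27465981) averaged 31.0 ± 6.55, 39.4 ± 2.81, 37.6 ± 4.59 and 41.2 ± 6.16 CPM in the same order of groups, and hyperoxia and room air overlapped after both injections.

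Of the 300 bases around each start site (250 before and 50 after, RefSeq, GRCm38.p6), a window was at hand for Blvra, Blvrb, Fth1, Ftl1, Hmox2 and Tfrc. The core of the antioxidant response element, TGACNNNGC on either strand, was found in 1 of these 6 windows, that of Blvra, and in 4071 of all 32851 windows (12.4%). For the other 5 the letters were not in this stretch, which says nothing of sites elsewhere.

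The ferritin subunits were the most abundant of the 10 genes per length. Fth1, the heavy chain with the iron-oxidizing site (chr19:9980600-9985111), stood at 477.5, 460.4 and 423 CPM in SAL/RA, at 501, 593 and 579 CPM in ATG/RA, at 885, 701 and 716 CPM in SAL/HYP and at 1010, 1104 and 1072 CPM in ATG/HYP. Ftl1, the light chain that helps the iron core form (chr7:45457944-45459886), stood at 337.5, 332 and 266 CPM in SAL/RA, at 383, 440.4 and 375 CPM in ATG/RA, at 718, 666 and 692 CPM in SAL/HYP and at 844, 942 and 866 CPM in ATG/HYP. For both chains the 4 groups lay in the order SAL/RA, ATG/RA, SAL/HYP, ATG/HYP with no overlap between neighbours.

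In hyperoxia Fth1 rose by 0.76 after saline (SE 0.0991, adjusted p = 0.000383) and by 0.93 after ATG (SE 0.0993, adjusted p = 6.31e-05). Ftl1 rose by 1.15 after each injection (SE 0.0984 and 0.0983, adjusted p = 1.33e-05 and 8.28e-06), a linear fold of 2.22 after saline and 2.21 after ATG. By p, Ftl1 was gene 11 of 15761 in the contrast after saline and gene 18 after ATG. The 2 chains together took 0.0702% to 0.0831% of all counts in SAL/RA, 0.0859% to 0.105% in ATG/RA, 0.137% to 0.162% in SAL/HYP and 0.186% to 0.203% in ATG/HYP. Relative to the heavy chain, the light chain was higher in hyperoxia: the Fth1 count divided by the Ftl1 count ran from 1.31 to 1.59 over the room air libraries (1.39 to 1.59 in SAL/RA, 1.31 to 1.55 in ATG/RA) and from 1.04 to 1.24 over the hyperoxia libraries (1.04 to 1.23 in SAL/HYP, 1.17 to 1.24 in ATG/HYP), with no overlap. This difference in the ratio was not tested.

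Per kilobase of the longest principal GENCODE M21 transcript, the mean SAL/RA level was 304 CPM for Fth1 and 322 CPM for Ftl1, against 5.48 to 30.1 CPM for the other 8 genes, with Slc40a1 lowest and Blvrb highest of these. Per kilobase of all annotated exons the ferritins again led, at 131 CPM for Fth1 and 233 CPM for Ftl1. The row for Ftl1 is uncertain, because 13 other annotated genes hold a stretch of at least 95% identity to it over 75 bases or more. Among them Ftl1-ps1 shares 910 bases, and none of the 13 is a row of the count table. No other gene held such a stretch of Fth1. Ftmt, the mitochondrial ferritin, had no count in any library, which allows up to 3 counts per library, for counting error only.

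Macrophages handle much of the body's heme iron, and some of their markers differed between the oxygen groups. The summed level of 16 macrophage markers ran from 2806 to 3570 CPM over the room air libraries and from 1693 to 2446 CPM over the hyperoxia libraries. Most of that sum was 1 gene, Lyz2, so the sum mainly shows the level of Lyz2. Its means were 2678 CPM in SAL/RA, 2792 in ATG/RA, 1641 in SAL/HYP and 1662 in ATG/HYP. The median difference of the 14 macrophage markers tested was 0.215 after saline and 0.115 after ATG, opposite in sign to that of the sum. Of these, Lyz2 (-0.71) and Siglec5 (-1.65) fell after saline, and Lyz2 (-0.75), Siglec5 (-1.97) and Mrc1 (-0.36) fell after ATG. Averaged over the injections, 2 of the 14 were called higher and 2 lower, beside 22.4% of all tested genes called. None of the 9 neutrophil markers passed in hyperoxia after saline or after ATG with edgeR, DESeq2 or limma-voom, with 0 and 1 of them under an unadjusted p of 0.05. With edgeR 9.19% and 11.7% of all tested genes passed, so a count of 0 among 9 genes says little. The median differences of the 9 were 0.431 after saline and 0.626 after ATG. Averaged over the injections edgeR called 0 of them, and DESeq2 and limma-voom called 1 each. Their sum ran from 134 to 269.5 CPM in room air and from 106 to 372 CPM in hyperoxia. Their part in the rises of Hmox1 and the ferritins was not tested.

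Slc40a1, ferroportin, the iron exporter (chr1:45908070-45926532), was measured at 18.1, 20.8 and 16.6 CPM in SAL/RA and at 16.8, 21.8 and 15.5 CPM in ATG/RA. It stood at 26.9, 23.3 and 28.1 CPM in SAL/HYP and at 27.1, 35.8 and 27.3 CPM in ATG/HYP, so every hyperoxia library lay above every room air library. Slc40a1 rose in hyperoxia after ATG by 0.74 (SE 0.159, adjusted p = 0.00726). After saline the difference was 0.50 (SE 0.159) and did not pass (adjusted p = 0.0665). Over 22 other settings that p ran from 0.0203 to 0.223 and was under 0.05 in 6: DESeq2 (0.0333), the 6 samples compared alone (0.046), without both Nppa-rich libraries (0.0344), sex as a covariate (0.0203), without ATG/RA 2 (0.0412) and without ATG/HYP 2 (0.0471). The effects of hyperoxia on Slc40a1 after the 2 injections were not shown to differ (interaction 0.24, SE 0.224, adjusted p = 1).

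Tfrc, the transferrin receptor that brings iron into cells (chr16:32608896-32632794), stood at 68.2, 60.9 and 72.4 CPM in SAL/RA and at 79.4, 89.2 and 74.6 CPM in ATG/RA. In hyperoxia it stood at 93.7, 106 and 126 CPM after saline and at 136, 122 and 122.4 CPM after ATG. Both hyperoxia groups lay above both room air groups and overlapped with each other. Tfrc rose in hyperoxia by 0.69 after saline (SE 0.111, adjusted p = 0.00168) and by 0.65 after ATG (SE 0.111, adjusted p = 0.00161). The receptor and the storage and export genes, which carry their hairpins at opposite ends of the message, were all higher in hyperoxia than in room air libraries. Within groups, over deviations from the group means, they did not rise together: Tfrc had r = -0.492 with Fth1, -0.153 with Ftl1 and 0.0885 with Slc40a1. The Fth1 count divided by the Tfrc count overlapped between all groups, from 5.84 to 7.76 in room air and from 5.68 to 9.45 in hyperoxia.

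Slc11a2, the transporter that moves ferrous iron out of endosomes (chr15:100387898-100424209), had the narrowest range of the 10 genes relative to its level, with a highest library 1.15 times the lowest. It stood at 64.7, 70.2 and 67.6 CPM in SAL/RA, 66.1, 64.1 and 73.4 CPM in ATG/RA, 65.7, 64.9 and 69.3 CPM in SAL/HYP and 64.5, 65.8 and 71.2 CPM in ATG/HYP. All 4 groups overlapped. Its difference in hyperoxia was -0.02 after saline (95% interval -0.193 to 0.156) and -0.02 after ATG (-0.189 to 0.159). Exons of Slc11a2 overlap Gm5475 on the opposite strand over 402 bases, so its level carries the same doubt on strand as that of Hmox2.

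Fech, ferrochelatase, had the largest spread between replicates relative to its level, with an SD of 48.9% of the mean in ATG/HYP. It stood at 109, 99.7 and 116 CPM in SAL/RA, at 154, 100.5 and 177 CPM in ATG/RA, at 79.0, 99.3 and 85.5 CPM in SAL/HYP and at 172, 70.2 and 89.2 CPM in ATG/HYP. ATG/RA 1, ATG/RA 3 and ATG/HYP 1 were the high libraries, and ATG/HYP held both the lowest value of all and 1 of the 3 highest. The difference in hyperoxia was -0.30 after saline (SE 0.259, adjusted p = 0.542) and -0.38 after ATG (SE 0.257, adjusted p = 0.389). Without ATG/HYP 1 the difference after ATG was -0.84 (adjusted p = 0.0137) and the averaged one -0.56 (adjusted p = 0.00571), and these were the lone settings of 22 and 21 in which Fech passed. Over the settings the p ran from 0.0137 to 0.831 after ATG and from 0.00571 to 0.515 in the average. The Fech row is also uncertain, because 28 other annotated genes hold a stretch of at least 95% identity to its transcript over 75 bases or more, and 10 of them are rows of the table.

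Red cell precursors make heme at a high rate, and Fech followed their markers across libraries. The summed level of 20 erythroid markers (Alas2 left out) was 185, 182 and 145 CPM in SAL/RA, 246, 199.6 and 321 CPM in ATG/RA, 83.7, 156 and 142 CPM in SAL/HYP and 450.2, 56.7 and 119 CPM in ATG/HYP. Slc4a1 was the largest part of the sum, with means of 87.7, 147, 57.2 and 112 CPM in the same order of groups. The sum thus rests largely on this gene. Over the 12 libraries the log2 level of Fech followed the log2 sum with Pearson's r = 0.917 (permutation p = 3e-05) and Spearman's rho = 0.909 (permutation p = 0.00012). Adjusted over Fech and Tfrc alone, these p-values were 6e-05 and 0.00024. The adjustment leaves out the other correlations computed for Fech. The draws shuffled libraries across the 4 groups, so these p-values do not separate the relation from differences between groups. Without ATG/HYP 1 and ATG/HYP 2, the libraries farthest from the median sum, r was 0.88 over 10. Within the 6 room air libraries r was 0.814, within the 6 hyperoxia libraries 0.972, and over deviations from the group means 0.894. For Tfrc, which red cell precursors also carry at a high level, r was -0.188 (permutation p = 0.56) and rho -0.224 (permutation p = 0.48). Without ATG/HYP 1 and ATG/HYP 2 the Tfrc r was -0.479 over 10 libraries. Over deviations from the group means it was 0.297, of opposite sign. None of the 13 erythroid markers tested passed with edgeR in hyperoxia after either injection, where 9.19% and 11.7% of tested genes did, 0 had an unadjusted p under 0.05, and DESeq2 and limma-voom also called 0. Their median difference was -0.604 after saline and -0.247 after ATG. Of the globin rows, Hba-a1 held 5 counts in all and Hba-a2, Hbb-bs, Hbb-bt, Hbb-b1 and Hbb-b2 held none, so mature globin messages give no measure of blood here.

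**Figure D2:**
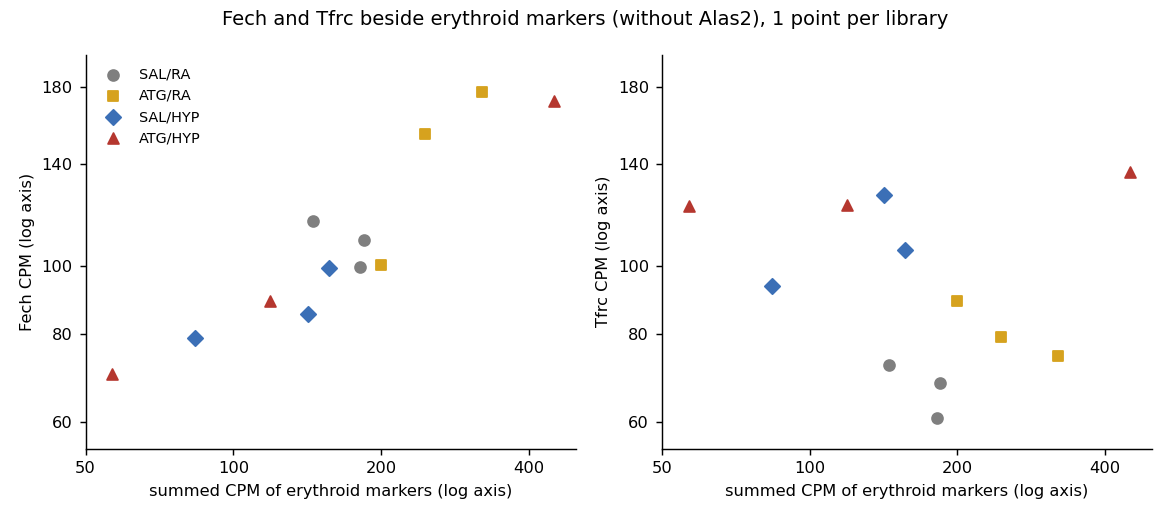
Level of Fech (left) and Tfrc (right) in CPM against the summed CPM of 20 erythroid markers, on log axes, with 1 point per library and a marker shape per group. Fech climbs with the sum (r = 0.917). For Tfrc r is -0.188 over all libraries and 0.297 over deviations from the group means. The hyperoxia points of Tfrc lie above the room air points over the whole range of the sum.

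ATG against saline moved no gene of the 10 past the threshold. In room air edgeR called 0 of the 10 and 0% of all tested genes, DESeq2 and limma-voom also called 0 of the 10, and 4 of the 10 had an unadjusted p under 0.05, against 949 of 15761 genes (6.02%). These 4 were Ftl1 (0.36, adjusted p = 0.712), Fth1 (0.30, 0.818), Tfrc (0.27, 0.818) and Blvrb (0.35, 0.818). ATG/RA lay above SAL/RA without overlap for Ftl1, Fth1 and Tfrc, where 12% of all tested genes did not overlap in either direction. Hmox1 differed by 0.23 in room air (95% interval -0.0413 to 0.505, adjusted p = 0.868).

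In hyperoxia edgeR called 0 of the 10 genes for ATG against saline and 0.00634% of tested genes (1 gene), while 3 of the 10 and 897 of all genes (5.69%) had an unadjusted p under 0.05. DESeq2 called 2 of the 10 and limma-voom 1. Hmox1 was higher in all 3 ATG/HYP libraries than in any SAL/HYP library, by 0.78 (SE 0.125, 95% interval 0.518 to 1.05), and was gene 2 of 15761 by p with an adjusted p of 0.134. Its adjusted p was 2.85e-05 with DESeq2, 0.0357 with limma-voom and 0.0347 with no filter on low counts, and ran from 2.85e-05 to 0.457 over 22 settings. Fth1 differed by 0.47 (SE 0.0986, adjusted p = 0.556, gene 7 by p) and passed with DESeq2 alone (0.00759), in a range from 0.00759 to 0.934. Ftl1 differed by 0.35 (SE 0.097, adjusted p = 0.608). For these 3 genes the groups did not overlap, against 11.1% of all tested genes.

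Averaged over both oxygen conditions, edgeR called 0 of the 10 genes for ATG against saline and 0.0444% of tested genes (7 genes), with 5 of the 10 and 1335 genes (8.47%) under an unadjusted p of 0.05. The differences were 0.51 for Hmox1 (SE 0.0891, adjusted p = 0.0592), 0.38 for Fth1 (SE 0.0698, 0.062), 0.36 for Ftl1 (SE 0.0687, 0.0914) and 0.25 for Tfrc (SE 0.0782, 0.367). DESeq2 called 3 of the 10, namely Hmox1 (0.000124), Fth1 (8.84e-05) and Ftl1 (0.000255), and limma-voom called 0. Fth1 also passed without ATG/RA 1 (0.0336) and without SAL/HYP 1 (0.0317), and over the settings the p ran from 8.84e-05 to 0.207 for Fth1, from 0.000124 to 0.197 for Hmox1 and from 0.000255 to 0.273 for Ftl1. The interaction of drug and oxygen called 0 of the 10 and 0% of tested genes with edgeR, and 0 of the 10 with DESeq2 and with limma-voom. The 1 gene of the 10 with an unadjusted interaction p under 0.05, against 465 of all genes (2.95%), was Hmox1, at 0.55 (SE 0.178, 95% interval 0.172 to 0.933, adjusted p = 1). The contrasts in hyperoxia and for hyperoxia share libraries, so their values for the same gene are not independent.

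**Figure D3:**
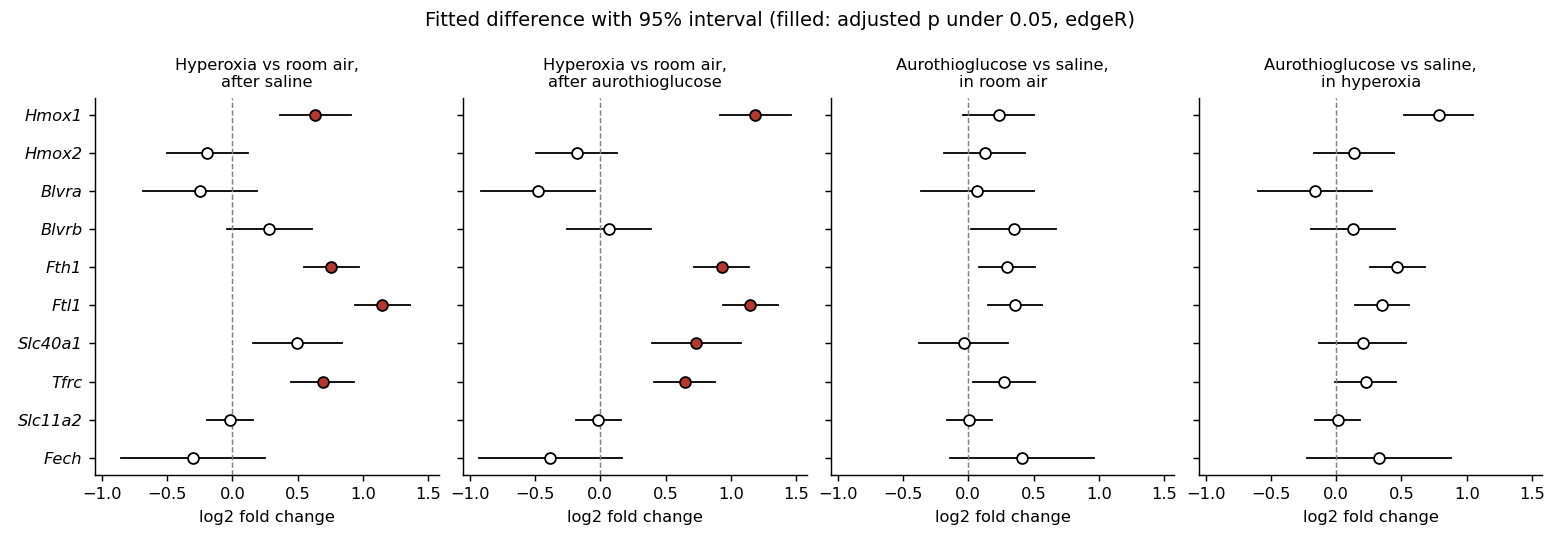
Fitted log2 fold change of each gene with its 95% interval in 4 contrasts (hyperoxia against room air after saline and after ATG, ATG against saline in room air and in hyperoxia). Filled points passed at an adjusted p under 0.05: 4 genes after saline and 5 after ATG for hyperoxia, and 0 in both contrasts for the drug, where Hmox1 in hyperoxia (0.78) lies farthest from 0.

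Of 11 other heme synthesis genes, 1 rose in hyperoxia after saline and 2 after ATG, and none fell, with medians of -0.136 and -0.0608. The count after saline is near the 9.19% of all tested genes called, and that after ATG stands beside 11.7%. Cpox, which makes protoporphyrinogen, rose by 0.66 (adjusted p = 0.0126) and 0.58 (0.0203). Alas1, the rate-limiting enzyme outside red cells, rose by 0.47 after ATG (adjusted p = 0.00582), from 85.9 to 113 CPM in ATG/RA to 132 to 144 CPM in ATG/HYP, and differed by 0.32 after saline (0.0532). Alas2, its red cell counterpart, differed by -0.22 (0.838) and -0.57 (0.507). Cpox lost its call after ATG without ATG/RA 1, ATG/RA 2, ATG/HYP 1 or ATG/HYP 3, and after saline with sex as a covariate. Alas1 also passed after saline with DESeq2, limma-voom, sex, the 6 samples compared alone, or without SAL/RA 1, ATG/RA 1, ATG/RA 2 or ATG/HYP 2.

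Of 11 heme transport and scavenging genes, 2 rose after saline and 5 after ATG, and none fell (medians 0.184 and 0.262), beside 9.19% and 11.7% of all tested genes. Slc48a1, which carries heme out of lysosomes, rose by 0.71 (adjusted p = 0.000537) and 0.69 (0.00048), from 58.7 to 73.3 CPM over the room air libraries to 98.4 to 118 CPM over the hyperoxia libraries. Pgrmc1, a heme-binding membrane protein, rose by 0.51 (0.00557) and 0.43 (0.011). Abcc5 (0.60, 0.00524), the heme exporter Flvcr1 (listed as Mfsd7b, 0.53, 0.0111) and its relative Flvcr2 (listed as Mfsd7c, 0.55, 0.0243) rose after ATG. Pgrmc1 and Flvcr2 lost their calls after ATG without ATG/RA 3, and Flvcr2 also without ATG/RA 2 or ATG/HYP 2, without both Nppa-rich libraries, with erythroid markers as a covariate or in the 6 samples alone. The plasma scavenger genes did not pass: Hpx, the heme binder, stood at 0.527 to 1.21 CPM as group means, and Hp, the hemoglobin binder, at 226 to 270.5 CPM, with differences of -1.15 (0.386) and -0.01 (0.989) after saline.

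Of 18 tested genes for other iron uptake, storage and export partners, 1 rose and 3 fell after saline, and 1 rose and 1 fell after ATG (medians -0.00211 and 0.0804), beside 9.19% and 11.7% of all tested genes. Slc39a8, a metal importer, rose by 0.39 (0.00648) and 0.26 (0.0421). Trf, transferrin itself, fell by 0.58 on the log2 scale after saline (0.00876) and by 0.50 after ATG (0.0149), while its receptor Tfrc rose. Lcn2, which binds bacterial iron carriers, fell by 1.20 after saline (0.0366) and differed by -0.15 after ATG (0.822). Cp, the ferroxidase that works with ferroportin, fell by 0.46 after saline (0.046). Ncoa4, which delivers ferritin for breakdown, differed by -0.06 (0.788) and -0.10 (0.647). After saline both Cp and Lcn2 lost their calls without SAL/RA 1, SAL/RA 2, SAL/HYP 1 or SAL/HYP 2, with limma-voom, with the replicate number as a block, and with erythroid markers or sex as a covariate, and Cp also without ATG/RA 1, SAL/HYP 3, ATG/HYP 1 or both Nppa-rich libraries. After ATG both Trf and Slc39a8 lost theirs without ATG/RA 3, without ATG/HYP 2 or with erythroid markers, and Slc39a8 also without SAL/RA 2, ATG/RA 1, ATG/HYP 1, ATG/HYP 3 or both Nppa-rich libraries, with no low-count filter, the block or sex, and in the 6 samples alone. Without ATG/RA 2, 4 genes of the list passed after ATG, these 2 with Heph and Steap4.

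Of 18 tested regulators, 1 rose after saline and 2 after ATG, and none fell (medians 0.0648 and 0.0126), which is at or under the 9.19% and 11.7% called over all tested genes. Nfe2l2, which encodes NRF2, an activator of Hmox1 and of both ferritin genes, rose by 0.49 after each injection (0.000625 and 0.00048). Bach1, the heme-sensing repressor of the same genes, rose by 0.41 after ATG (0.0206) and differed by 0.19 after saline (0.307). Bach1 lost its call after ATG without ATG/RA 1, ATG/RA 2, ATG/HYP 2 or both Nppa-rich libraries and with erythroid markers as a covariate, while Nfe2l2 kept its calls in every setting run. The iron regulatory proteins that bind the hairpins did not pass: Aco1 differed by 0.09 (0.648) and 0.15 (0.372), and Ireb2 by 0.06 (0.659) and 0.00 (0.992). Hamp, the hormone that removes ferroportin, was low, at 0.0685 to 3.08 CPM over all libraries, and differed by -0.27 (0.911) and -0.25 (0.912).

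Of 14 genes for iron-sulfur cluster assembly, Iscu, the scaffold, rose after saline (0.39, 0.032), 1 call beside the 9.19% of all tested genes, and after ATG edgeR, DESeq2 and limma-voom called 0, with 1 gene under an unadjusted p of 0.05. The Iscu call was lost on leaving out any SAL/RA library, SAL/HYP 1, SAL/HYP 3 or both Nppa-rich libraries, with no low-count filter, with erythroid markers or sex as a covariate, and in the 6 samples alone. Of 11 NRF2 targets outside the 10 genes, 8 rose after saline and 9 after ATG (medians 0.743 and 0.819), and none fell, beside 9.19% and 11.7% of all tested genes. Srxn1, which repairs peroxiredoxins, rose by 1.60 (4.36e-06) and 1.76 (1.37e-06), and Gclc, the first enzyme of glutathione synthesis, by 1.24 (1.33e-05) and 1.42 (3.2e-06). Txnrd1, the thioredoxin reductase that gold compounds inhibit, rose by 0.77 (0.00017) and 0.82 (7.56e-05). For ATG against saline, edgeR called 0 of the 83 tested genes of the 6 lists in room air (DESeq2 and limma-voom 0, with 11 under an unadjusted p of 0.05) and 0 in hyperoxia (DESeq2 2, limma-voom 1, with 13). Averaged over oxygen it called 1 of the 83, against 0.0444% of all tested genes: Slc7a11, the cystine importer and an NRF2 target, rose by 0.98 (SE 0.153, adjusted p = 0.0478). That call was lost in 10 of the 12 fits that left out 1 library (it stood without ATG/RA 1 and without ATG/HYP 2), and over 21 settings the p ran from 4.07e-07 to 0.176. In the average 20 of the 83 had an unadjusted p under 0.05, and DESeq2 called 4 and limma-voom 1. Of the 11 NRF2 targets, 6 were under 0.05 unadjusted for ATG in room air, 7 in hyperoxia and 9 averaged. The shares of all tested genes were 6.02%, 5.69% and 8.47%. In the same order DESeq2 called 0, 2 and 3 of the 11 and limma-voom 0, 1 and 1, with medians of 0.195, 0.242 and 0.193.

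**Figure D4:**
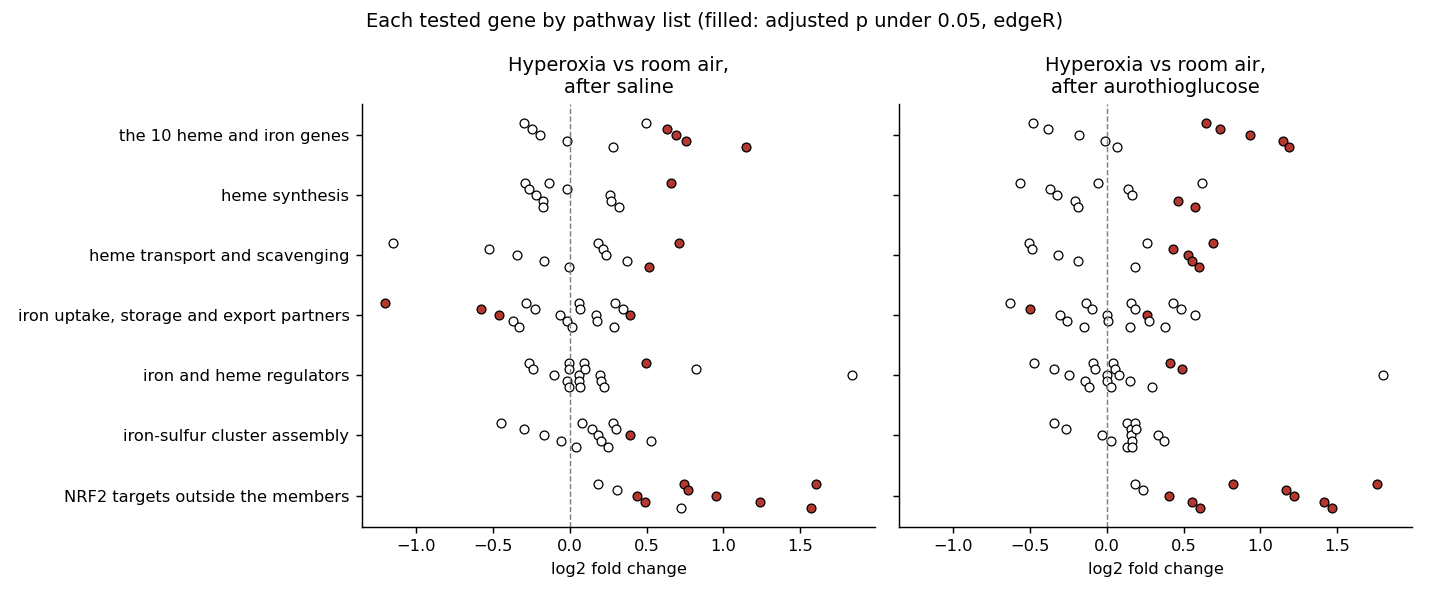
Log2 fold change in hyperoxia after saline (left) and after ATG (right) of every tested gene of the 10 heme and iron genes and of 6 pathway lists, with 1 point per gene. Filled points passed at an adjusted p under 0.05, among them 8 and 9 of 11 NRF2 targets but 1 and 2 of 11 heme synthesis genes.

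Across the 12 libraries, Hmox1 was most like Gtpbp4 (r = 0.973), Sqstm1 (0.946) and Prdx1 (0.944) among tested genes with a mean of at least 5 CPM. Fth1 was most like Dstn and Grina (0.981 each) and Ftl1 (0.972), and Ftl1 most like Icam1, Gstm1 (0.985 each) and Creg1 (0.984). Slc40a1 was most like Prss8 (0.973), Atp6v1e1 (0.955) and Abcc5 (0.953), and Tfrc most like Atp6ap1 (0.971), Pxn (0.962) and Cisd1 (0.958). Fech was most like Epb4.1 (0.985), Alas2 (0.965) and Fam220a (0.964), and 2 of these, Epb4.1 and Alas2, are genes of red cells. Within groups, over deviations from the group means, Hmox1 and Fth1 had r = 0.0645 and Ftl1 and Slc40a1 r = 0.789, so the pooled values between members rest on the groups to different degrees. These correlations share libraries, groups and scaling and are given as descriptions.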

How the data were processed

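The authors deposited raw counts per gene symbol for 12 lung libraries. Amplified cDNA (Ovation V2) went into Nextera XT libraries read as paired 75-base ends, per the labels' protocols. The submitters' processing notes name Bowtie2, Cufflinks, DESeq and mm10 and give no version. Not given in the sources used here are the counting tool, its strand setting and its treatment of multiple matches, so near-identical copies may have shared or lost reads. Of 23478 rows 3350 held no count. Total counts ran from 14331749 to 20486735. Replicates of a group differed by more than sampling noise (chi-square per degree of freedom 6.83 to 41.9).

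The filterByExpr rule by group (at least 10 counts, and 15 in total) left 15761 genes with 99.96% of counts. edgeR 4.0.16 (R 4.3.3) fitted TMM-scaled counts of all 12 samples with 1 mean per group by the quasi-likelihood test (8 residual degrees of freedom, common biological coefficient of variation 18.7%). Tests are two-sided, with Benjamini-Hochberg adjustment over all genes and a threshold of 0.05. The 7 contrasts were hyperoxia after each injection and averaged, ATG in each oxygen condition and averaged, and the interaction. SE is the log2 fold change divided by the root of F. Permutation p-values of correlations used 100000 draws. Log2 CPM for correlations used a prior count of 2. DESeq2 1.42.0, limma-voom (limma 3.58.1) and other settings were alternatives. The code was tested on simulated data. Symbols were matched to RefSeq GRCm38.p6 (21912 by symbol, 1442 by synonym, 124 unmatched).

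The members and gene lists were chosen with earlier results of these data known. All 10 members are named. Of each pathway list up to 4 genes with the smallest adjusted p under 0.05 are named, with Alas1, Bach1, Nfe2l2, Ireb2, Aco1, Ncoa4, Flvcr1, Hamp, Hpx, Hp and Lcn2 whatever their p; Alas2 and the marker genes beside the results were named after their values were seen. Likeness names the 3 genes with the highest Pearson correlation, leaving out predicted gene models.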

Additional observations from a re-analysis of the deposited data

How the results depend on the processing

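The counts of members called in hyperoxia in either direction (4 after saline, 5 after ATG, 5 averaged, all higher in the main fit) stayed within 1.5 times under every alternative run. Fth1, Ftl1, Hmox1 and Tfrc passed under all of them in these 3 contrasts. Some added calls were lower in hyperoxia: Fech without ATG/HYP 1 (-0.84 after ATG, -0.56 averaged) and Blvra in 4 averaged settings (-0.43 to -0.46). No called value changed sign. For ATG against saline in hyperoxia, 0 members passed with edgeR, but 2 with DESeq2, 1 with limma-voom and 1 with no filter on low counts. For ATG averaged over oxygen, 0 became 3 with DESeq2, 3 with no filter and 2 with cardiomyocyte markers as a covariate, and leaving out 1 library gave 0 to 1. The cause was not tested. Genes called over the whole table fell from 1449 to between 752 and 959 after saline without SAL/RA 2, SAL/RA 3, SAL/HYP 1 or SAL/HYP 3, and from 1838 to 1156 and 1162 after ATG without ATG/RA 1 or ATG/RA 3. For ATG in room air 0 became 16 with DESeq2 and 1 without ATG/RA 2. For ATG in hyperoxia 1 became 11 with DESeq2, 3 with limma-voom, 3 with no filter and 0 without both Nppa-rich libraries or with sex as a covariate, and 0 to 2 on leaving out 1 library. For ATG averaged 7 became 94 with DESeq2, 24 with no filter, 21 with cardiomyocyte markers, 4 with sex, 3 with RLE size factors, 2 with erythroid markers, 2 without both Nppa-rich libraries and 0 to 27 on leaving out 1 library. The interaction went from 0 to 1 with erythroid markers. Deviations from the group means were little alike in same-numbered samples (r from -0.156 to 0.28, median 0.0244 over 18 pairs). For the 36 other pairs r ran from -0.272 to 0.222 (median -0.0117). With 3 libraries per group this cannot exclude that the numbers pair samples. With the replicate number as a block, 4, 5 and 5 members rose in hyperoxia and 0 passed for the drug, while genes called for ATG averaged went from 7 to 3. The pathway list calls were run under the same alternatives, chosen after seeing the data, and the calls lost stand beside 5 of the 6 lists. Of the NRF2 targets, Gclm lost its call after saline with sex as a covariate and without SAL/RA 1 or SAL/HYP 2, Gsr without SAL/HYP 1 and Nqo1 without SAL/HYP 3, and Prdx1 lost its call after ATG without ATG/RA 1, ATG/RA 3 or ATG/HYP 3, with erythroid markers and in the 6 samples alone. Depth limits rows at a few CPM or less, among them Hamp and Hpx.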
